A study of Mus musculus with 28 samples.

Results

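The miR-23, miR-24 and miR-27 family was followed in alveolar macrophages (AM), the resident phagocytes of the airspaces, through 5 mature miRNAs: mmu-mir-23a-3p, mmu-mir-23b-3p, mmu-mir-24-3p, mmu-mir-27a-3p and mmu-mir-27b-3p. They were taken by name from the deposited tables, and each of the 5 was present in all 4 tables, which listed 368 (co-ex females), 412 (co-ex males), 403 (KO females) and 565 (KO males) miRNAs. The mice were humanized transgenics carrying SP-A1 and SP-A2 (6A2/1A0, called co-ex) or SP-A knockouts (KO), all 12 weeks old and all without mouse SP-A, because the co-ex line was bred onto SP-A knockout mice of C57BL/6J stock. Mice of each sex inhaled filtered air (FA) or ozone (O3) for 3 h, and AM were collected by lavage 4 h later. Each co-ex group of sex and exposure held 4 libraries and each KO group held 3, or 28 in all. SP-A is made by epithelial cells of the alveolus rather than by AM, and its mRNA is not measured in small RNA libraries, so the genotypes could not be checked here. According to the study's methods the females were oestrous-synchronised.

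These miRNAs come from a pair of genomic clusters that arose by duplication. Each cluster is transcribed as one precursor carrying a miR-23, a miR-27 and a miR-24 hairpin, and each hairpin can yield a strand from its 5' side (5p) and one from its 3' side (3p). The 3p strands are the ones usually loaded into Argonaute, where bases 2 to 8, the seed, pair with target mRNAs. In macrophages these miRNAs have been linked to inflammatory activation and to lipid metabolism.

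The a cluster (mir-23a, mir-27a, mir-24-2) spans 404 bases of the plus strand at chr8:84208518-84208921 (GRCm38). It lies between genes except that the end of mir-24-2 overlaps an exon of the lincRNA Gm26532. The b cluster (mir-23b, mir-27b, mir-24-1) spans 792 bases of the plus strand at chr13:63300484-63301275. It lies within the protein-coding gene 2010111I01Rik, with mir-23b in an intron and with mir-27b and mir-24-1 overlapping an exon of at least 1 annotated transcript, and on the opposite strand all 3 hairpins fall in introns of Fancc. RefSeq sequences on this build were found for 4 of the 5 members, and they are shown with the seed in capitals because the comparison between the clusters depends on how alike they are.
miR-23a-3p: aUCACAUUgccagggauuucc
miR-27a-3p: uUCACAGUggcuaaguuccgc
miR-27b-3p: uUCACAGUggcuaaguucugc
miR-24-3p: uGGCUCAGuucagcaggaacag

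The miR-27 pair shared its seed and differed at 1 of 21 bases, C19U, counted from the 5' end of miR-27a-3p. The seeds of miR-23a-3p and miR-27a-3p shared their first 5 bases and differed at 1 of 7. miR-24-3p was identical from mir-24-1 and mir-24-2, so its reads could not be assigned to a cluster. The 5p strands differ more between the clusters, and those that bear on the results are shown in the same way.
miR-23a-5p: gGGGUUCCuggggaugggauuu
miR-23b-5p: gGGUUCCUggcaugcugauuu
miR-24-2-5p: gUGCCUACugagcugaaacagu
miR-24-1-5p: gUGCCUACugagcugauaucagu

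The libraries held 41542 to 2082034 miRNA reads, and all deposited values were whole multiples of one read. In each table, a normalised value is the read count divided by a size factor for the library. A count of 0 allows up to 3 reads. The share of a member in the reads of its library had a 95% Wilson interval at most 0.286 percentage points wide, and such intervals cover counting error only. Mature lengths were 21 or 22 bases for the 4 members with a sequence, and that of miR-23b-3p was not checked. Reads were compared between members without a length correction. The tables were normalised separately, so values were tested only within a table, and levels in different tables are set side by side as shares of reads. The library labelled KO male FA replicate 3 stood apart. Its myeloid miRNAs took 0.924% of reads, against 9.72% and 8.58% in the other FA libraries of KO males. Its mesenchymal and smooth muscle miRNAs took 2.64% of reads, against 0.0862% and 0.0832%, and its endothelial miRNAs 0.718%, against 0.00107% and 0.00112%. Tests in KO males are therefore also given without it where it moved them. Myeloid miRNAs (4 of the 7 in the list in co-ex females, 5 in the other tables) took 0.898% to 10.1% of reads over all libraries. The list named miR-142 without the letter the tables use, so its strands are in none of the myeloid shares given here. One of the 5 myeloid miRNAs counted in co-ex males was at 0 in FA replicates 3 and 4 of that table.

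miR-23a-3p was the leading member. It took between 0.939% and 6.80% of miRNA reads (median 3.12% of 28 libraries) and ranked between 3rd and 21st among the miRNAs of its library, with a median rank of 8. miR-24-3p followed with a median share of 0.963% (0.403% to 1.79%), then miR-27b-3p with 0.716% (0.337% to 1.00%), miR-23b-3p with 0.642% (0.132% to 1.74%) and miR-27a-3p with 0.421% (0.241% to 0.728%). miR-23a-3p exceeded miR-24-3p in 27 of 28 libraries, and the exception was KO male FA replicate 3. Below it the order was not firm. miR-24-3p exceeded miR-27b-3p in 20 of 28 libraries, and miR-23b-3p exceeded miR-27b-3p in 11 of 28, so no single order of those neighbours held over all libraries.

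The order differed between tables. In co-ex males miR-23b-3p exceeded miR-27b-3p in 8 of 8 libraries and miR-24-3p in 7 of 8. In KO males miR-23b-3p lay below both in 6 of 6 libraries. miR-24-3p exceeded miR-27b-3p in 6 of 6 libraries of each KO table, in 6 of 8 of co-ex males and in 2 of 8 of co-ex females. miR-24-3p took 1.01% to 1.79% of reads in KO libraries other than KO male FA replicate 3, which had 0.953%, and 0.403% to 1.18% in co-ex libraries. Together the 5 members took 3.59% to 7.31% of reads in co-ex females (median 4.82%) and 6.59% to 10.3% in co-ex males (median 9.08%). The sum was 5.35% to 6.77% in KO females (median 6.10%) and 3.30% to 7.37% in KO males (median 6.97%), where the lowest was FA replicate 3. Sex and genotype are each confounded with the table here, and these shares are a description without a test.

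**Figure D1:**
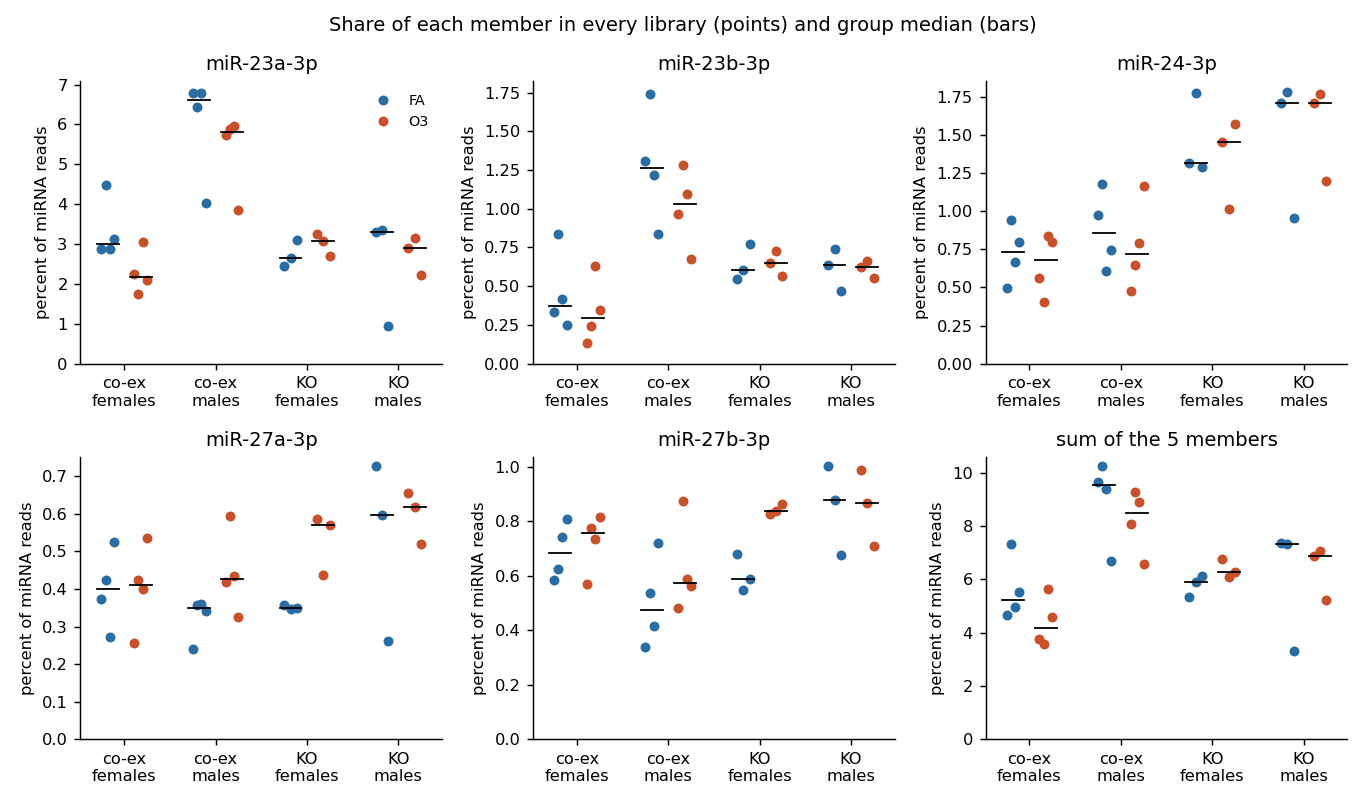
Percent of the miRNA reads of each library taken by each of the 5 members and by their sum, by table and exposure (FA blue, O3 orange). Points are libraries and bars are group medians; miR-23a-3p lay between 0.939% and 6.80%, the co-ex males had the highest sums, and KO male FA replicate 3 is the low point of miR-23a-3p.

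The comparison of O3 with FA asked whether an oxidant exposure moved these miRNAs in AM. None of the 5 members passed the test in any table, by limma on log2(normalised value + 1) with Benjamini-Hochberg adjustment over all tested miRNAs and a threshold of 0.1. All 5 passed the filter on low values in every table. As background, co-ex females had 1 differentially expressed miRNA of 271 tested (0.369%) and co-ex males had 0 of 312 (0%, with 11 at an unadjusted p under 0.05). KO females had 42 of 319 (13.2%) and KO males had 4 of 440 (0.909%), a count that was 88 of 440 (20%) without FA replicate 3. With all libraries and at an unadjusted p under 0.05, 0 of 5 members passed in each table by limma, by edgeR and by DESeq2, and the smallest unadjusted p of a member by limma was 0.141. Because the libraries come from bulk AM, fewer cells of a type and less miRNA per cell cannot be told apart.

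The median log2 fold change of the 5 members was -0.17 in co-ex females, beside -0.16 over all tested miRNAs. The same medians were -0.06 beside 0.18 in co-ex males, -0.05 beside 0.06 for KO females, and -0.14 beside -0.04 for KO males. Of the members of each table, 2 had a log2 fold change above 0 and 3 had one below 0, but most of these signs are not firm. Scaling to library totals moved the median of all miRNAs by -0.10 (co-ex males), 0.19 (KO females) and 0.24 (KO males), and it turned miR-23a-3p and miR-23b-3p positive in KO females and miR-23b-3p, miR-24-3p and miR-27b-3p positive in KO males.

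The intervals show how large an effect the data leave possible. In KO females the 95% intervals of all 5 members lay between log2 fold changes of -0.95 and 0.95, that is between 0.519 and 1.93 times the FA level. In co-ex females they reached from -1.62 to 0.82, in co-ex males from -1.12 to 1.32, and in KO males from -1.11 to 1.27, or from -0.99 to 0.13 without FA replicate 3. With the deposited scaling, a change of more than 2-fold was therefore outside the intervals of all members in KO females. With all libraries it was within the interval of at least 1 member in the other tables. The bound in KO females depends on that scaling. Scaling to library totals moved the median of all miRNAs there by 0.19, and intervals after it are not given here.

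**Figure D2:**
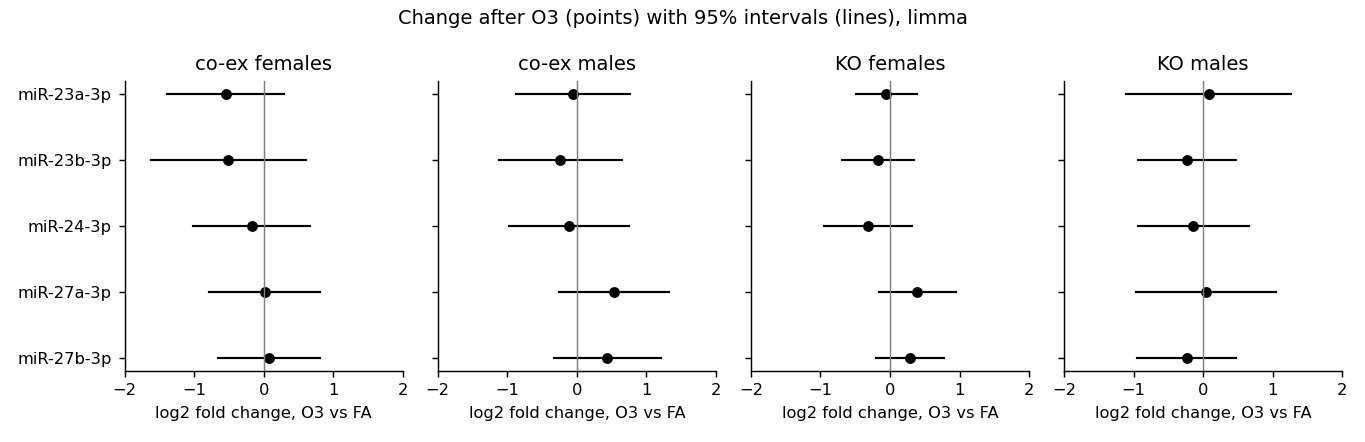
Log2 fold change after O3 (points, x axis) with 95% intervals (lines) for each member in each table, from limma on log2(normalised value + 1). Every interval spans 0, and those in KO females are the narrowest, between -0.95 and 0.95.

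miR-23a-3p, the most abundant member, measured 4414, 7588, 4683 and 4434 normalised units in the FA libraries of co-ex females and 3772, 2707, 4479 and 3359 in the O3 libraries. The groups overlapped only through the O3 library at 4479, and the log2 fold change was -0.54 (SE 0.39, adjusted p = 0.841). Without FA replicate 2, the highest, it was -0.36. In the same libraries the summed share of the 4 listed myeloid miRNAs ranged from 2.37% to 6.85% after FA and from 0.898% to 3.76% after O3. The share of red cell miRNAs (4 of 5 listed) was 1.28% to 13.7% after FA and 0.293% to 0.428% after O3, without overlap. The part of either share in the values of these libraries was not tested.

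In co-ex males miR-23a-3p measured 26160, 21402, 23394 and 10706 units after FA and 20288, 21642, 22272 and 12275 after O3. The groups overlapped and their difference was small, at a log2 fold change of -0.06 (SE 0.37). In KO females the FA libraries had 13876, 15729 and 16191 units and the O3 libraries 16407, 14683 and 13196, which gave -0.05 (SE 0.19, 95% interval -0.49 to 0.39).

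In KO males miR-23a-3p measured 46722, 44386 and 13757 units after FA and 33977, 36367 and 27378 after O3. The FA libraries enclosed the O3 libraries only because of FA replicate 3. With it the log2 fold change was 0.08 (SE 0.50), and without it -0.49 (limma unadjusted p = 0.0494, adjusted p = 0.196). The other members in KO males also lay lower without this library, at -0.38 for miR-23b-3p, -0.40 for miR-24-3p, -0.37 for miR-27a-3p and -0.36 for miR-27b-3p, with adjusted p between 0.196 and 0.337 for the 5 members by limma. None passed the threshold with or without it. Without it all 5 members had groups that did not overlap, in a table where 43.4% of tested miRNAs then had none. The 12 epithelial miRNAs took 0.239% and 0.306% of reads in the remaining FA libraries and 2.65% to 3.57% after O3, and the 5 listed myeloid miRNAs took 9.72% and 8.58% after FA and 4.19% to 7.37% after O3. Neither share overlapped between the exposures, and their part in these values was not tested.

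The miR-27 pair showed the largest positive values among the members. In KO females miR-27a-3p had 2031, 2060 and 1814 units after FA and 2956, 2089 and 2796 after O3, a log2 fold change of 0.40 (SE 0.24, limma adjusted p = 0.391). miR-27b-3p had 3857, 3262 and 3056 units after FA and 4160, 4014 and 4228 after O3, a log2 fold change of 0.29 (SE 0.21, limma adjusted p = 0.485). For both, every O3 library lay above every FA library, although the nearest libraries of miR-27a-3p differed by little, 2089 against 2060. These were 2 of 5 members without overlap in a table where 31.3% of tested miRNAs had none, close to that background. The share of the 12 epithelial miRNAs in these libraries was 0.207% to 0.557% after FA and 2.89% to 5.29% after O3, with none of the 12 at 0 in an O3 library. The mesenchymal and smooth muscle share (6 of 8 listed) was 0.0143% to 0.0928% after FA and 0.101% to 0.507% after O3, and the myeloid share (5 of 7 listed) was 7.30% to 8.52% and 4.25% to 7.26%, both without overlap. The part of these shares in the miR-27 values was not tested.

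In co-ex males miR-27a-3p measured 928, 1186, 1245 and 906 units after FA and 1480, 2182, 1623 and 1040 after O3. The groups overlapped, and the log2 fold change of 0.53 (SE 0.36) had an adjusted p of 0.944 by limma. miR-27b-3p in the same table ranged from 1299 to 1918 units after FA and from 1698 to 3212 after O3, with a log2 fold change of 0.44 (SE 0.35). In co-ex females the pair was level, at 0.01 (SE 0.37) and 0.07 (SE 0.34), and in KO males it was at 0.05 (SE 0.43) and -0.24 (SE 0.30). With all libraries, outside KO females 0 of 5 members had groups without overlap in any table, against 4.06% (co-ex females), 2.88% (co-ex males) and 12.7% (KO males) of all tested miRNAs.

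miR-24-3p and miR-23b-3p had log2 fold changes below 0 in all 4 tables, none beyond the spread of the libraries, and scaling to library totals turned 1 of these values in KO females and both in KO males. miR-24-3p ranged from 6693 to 10563 units after FA and from 4841 to 7706 after O3 in KO females, a log2 fold change of -0.32 (SE 0.28), and its log2 fold changes in the other tables were between -0.17 and -0.11. miR-23b-3p was at -0.51 (SE 0.52) in co-ex females, where one O3 library held only 55 of its reads, and with single libraries left out it ranged from -0.85 (without O3 replicate 3) to -0.13 (without FA replicate 2). It was between -0.24 and -0.17 in the other tables.

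Whether the O3 response of the members differed between genotypes or sexes was tested by subtracting one table's change from another's. By limma 0 of 5 members passed in each of the 4 contrasts. The background was 21 of 241 miRNAs (8.71%) for co-ex against KO in females. For co-ex against KO in males it was 0 of 305 (0%, with 6 at an unadjusted p under 0.05). For males against females co-ex gave 0 of 249 (0%, with 8) and KO gave 0 of 309 (0%, with 17). The largest difference of a member was 0.68 on the log2 scale (95% interval -0.30 to 1.65), for miR-27b-3p in males, where the change was 0.44 in co-ex and -0.24 in KO. Without KO male FA replicate 3 that difference was 0.80 (95% interval -0.18 to 1.79), and the one for miR-27a-3p in males was 0.90 (-0.10 to 1.90) in place of 0.49. Without the same library miR-27a-3p differed by -0.76 between KO males and KO females (95% interval -1.43 to -0.09, unadjusted p = 0.0303, limma adjusted p = 0.689). In that contrast miR-27b-3p differed by -0.66 (95% interval -1.27 to -0.04, unadjusted p = 0.0381, limma adjusted p = 0.692). Without that library 0 of 5 members passed in either contrast. The background was then 0 of 305 miRNAs for co-ex less KO in males and 0 of 309 for KO males less KO females. These counts therefore do not set the members apart. These contrasts share tables, so they are not independent of one another.

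The a and b clusters differed in opposite directions for miR-23 and for miR-27. miR-23a-3p exceeded miR-23b-3p in 28 of 28 libraries, on average 7.81-fold (co-ex females), 5.07-fold (co-ex males), 4.47-fold (KO females) and 4.01-fold (KO males). miR-27a-3p lay below miR-27b-3p in 28 of 28 libraries, at 0.556, 0.688, 0.604 and 0.637 times its level in the same tables. Exact sign-flip tests of each log2 ratio against 0, on both sides and adjusted over 8 tests, gave p = 0.0156 in the co-ex tables (n = 8) and p = 0.0313 in the KO tables (n = 6). The unadjusted p-values, 0.00781 and 0.0313, were the smallest these exact tests could give. Without FA replicate 3 the mean log2 ratio in KO males was 2.20 in place of 2.00 for miR-23 and -0.51 in place of -0.65 for miR-27.

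In co-ex females the ratio of miR-23a-3p to miR-23b-3p was 8.60, 5.36, 6.87 and 12.4 after FA and 17.0, 7.26, 4.81 and 5.98 after O3. The 17.0 came from the library of 41542 reads, with 55 reads of miR-23b-3p. In KO females, the most even table, the ratio was 4.49, 4.35 and 4.04 after FA and 5.04, 4.22 and 4.74 after O3. In KO males it was 5.17, 4.52 and 1.99 after FA and 4.63, 4.78 and 4.03 after O3, and the 1.99 was replicate 3. The ratio of miR-27a-3p to miR-27b-3p stayed between 0.370 and 0.872 in all 28 libraries, with 0.389 in KO male FA replicate 3 beside 0.726 and 0.682.

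No change of either ratio after O3 passed the threshold of 0.1, but the tests could detect little. The log2 ratio of miR-23a-3p to miR-23b-3p after O3 less that after FA was -0.04 (co-ex females), 0.18 (co-ex males), 0.12 (KO females) and 0.31 (KO males). For miR-27a-3p over miR-27b-3p the differences were -0.06, 0.10, 0.10 and 0.28. All 8 had an adjusted p of 0.943 by exact two-sided permutation tests, which could reach 0.0286 with 4 libraries against 4 and 0.1 with 3 against 3. No ratio in the KO tables could therefore pass. In the co-ex tables a ratio at 0.0286 could not pass alone after adjustment over the 8 tests. Without FA replicate 3 the differences in KO males were -0.12 and -0.00075.

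**Figure D3:**
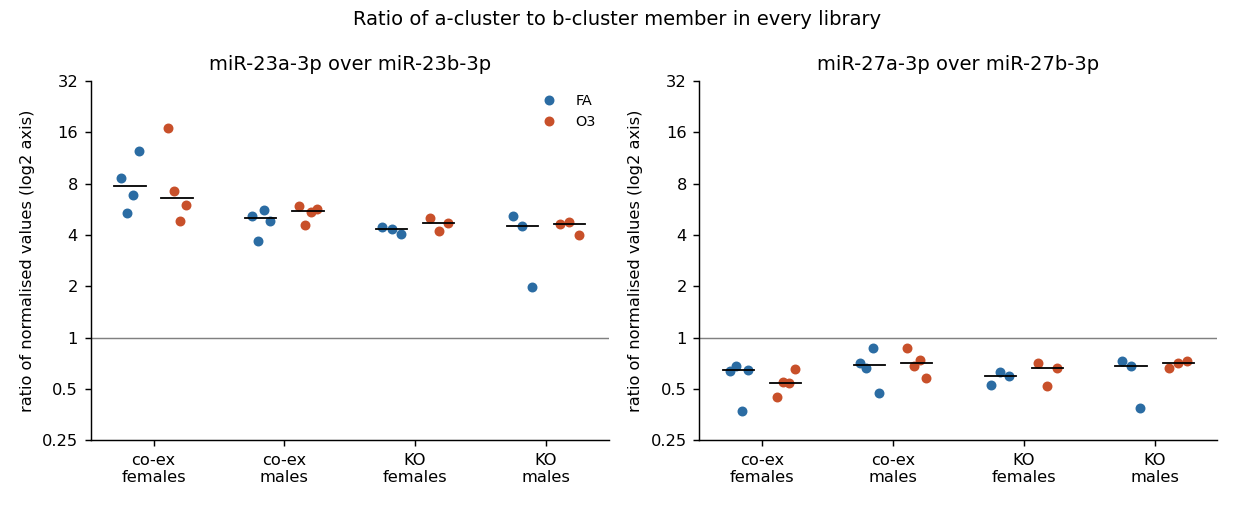
Ratio of the a-cluster to the b-cluster member in every library (points; FA blue, O3 orange; log2 axis) with group medians (bars) and a line at equality. All 28 points lie above 1 for miR-23, between 1.99 and 17.0, and below 1 for miR-27, between 0.370 and 0.872.

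How reads that fit both members of a pair, such as reads trimmed at the 3' end, were assigned is not given in the sources used here. The C19U difference of miR-27 lies near that end, and the effect of this assignment on either ratio was not tested. The 5p strands, which can be told apart along more of their length, gave a second view of the clusters for miR-23. miR-23a-5p exceeded miR-23b-5p in 28 of 28 libraries, with values of 32.8 to 470 units against 2.96 to 126. miR-24-2-5p, from the a cluster, exceeded miR-24-1-5p, from the b cluster, in 20 of 20 libraries of the 3 tables that list both, with 166 to 2678 units against 0 to 57.6. Those strands share their first 16 bases. The order of the 5p strands of miR-27 differed between tables. miR-27a-5p was higher than miR-27b-5p in 6 of 6 libraries of KO males and 5 of 6 of KO females, the reverse of the 3p strands there. Several KO female counts were low. miR-27b-5p had 0 reads in FA replicates 2 and 3 and 5 in O3 replicate 2. miR-27a-5p had 7 reads in FA replicate 2 and 13 in O3 replicate 2. In co-ex females miR-27a-5p was higher in 1 of 8 libraries and lower in 6 of 8. In co-ex males it was higher in 2 of 8 and lower in 4 of 8. Neither strand exceeded 23.4 units in the co-ex tables.

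The other strands of these hairpins were a list of 9, with mmu-mir-3074 strands from the opposite strand of mir-24 included. In KO females 7 were listed, 6 were tested and 1 was differentially expressed by limma, close to the background of 13.2% of all tested miRNAs. Between 4 and 7 were tested in the other tables and 0 passed, with 0 at an unadjusted p under 0.05, when all libraries were used. The background at that unadjusted level was 16 of 271 miRNAs in co-ex females, 11 of 312 in co-ex males and 32 of 440 in KO males. miR-23a-5p fell in KO females, from 269, 470 and 265 units after FA to 84.9, 116 and 70.3 after O3. The highest O3 library was under the lowest FA library, in a table where 31.3% of tested miRNAs had no overlap. The log2 fold change was -1.85 (SE 0.47, adjusted p = 0.0407 from limma). miR-23a-3p of the same hairpin had a log2 fold change of -0.05 in the same libraries. The reads behind these values were 477, 642 and 379 after FA and 100, 27 and 91 after O3.

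The call on miR-23a-5p held by edgeR (log2 fold change -1.90, adjusted p = 0.0447) and by DESeq2 (-1.91, adjusted p = 0.00104). It was lost without FA replicate 2 (-1.58, limma adjusted p = 0.126) and without O3 replicate 3 (-1.69, limma adjusted p = 0.137). The epithelial, mesenchymal and myeloid shares given above moved with the same groups, and in O3 replicate 3 striated muscle miRNAs (2 of the 3 in the list) took 8.53% of reads, against 0.0720% or less in the other libraries of this table. The part of these shares in the result was not tested.

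The b-cluster counterpart gave a like value without passing the threshold. miR-23b-5p measured 45.7, 87.2 and 80.3 units after FA in KO females and 23.8, 17.2 and 12.4 after O3, without overlap. The reads behind these values were 81, 119 and 115 after FA and only 28, 4 and 16 after O3. The log2 fold change of miR-23b-5p was -1.93 (SE 0.80, limma adjusted p = 0.168). With miR-23a-5p, miR-23b-5p made 2 of the 6 other strands tested without overlap, close to the background of 31.3% of all tested miRNAs. The ratio of 5p to 3p strand in KO females was 0.0212 after FA and 0.00609 after O3 for miR-23a, and 0.0195 and 0.00576 for miR-23b, each without overlap between the groups. These ratios were formed after the values had been seen. Their exact two-sided permutation p of 0.1 was the smallest that 3 libraries against 3 allow, and adjusted over the 28 ratios of this family it was 0.622.

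In the other tables miR-23a-5p differed less between the exposures, with log2 fold changes of -0.66 (SE 0.59) in co-ex females, -0.41 (SE 0.52) in co-ex males and -0.39 (SE 0.55) in KO males, and the groups overlapped in each. In KO males it was -0.78 without FA replicate 3 (limma adjusted p = 0.240), and the groups then did not overlap, beside 43.4% of all tested miRNAs. The difference between these responses was tested. It was 1.46 (95% interval -0.13 to 3.05, adjusted p = 0.815) for KO males less KO females, or 1.08 (95% interval -0.35 to 2.50, adjusted p = 0.858) without that library, and 1.19 (95% interval -0.48 to 2.86, adjusted p = 0.461) for co-ex less KO in females, both by limma, so a fall particular to KO females was not shown.

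**Figure D4:**
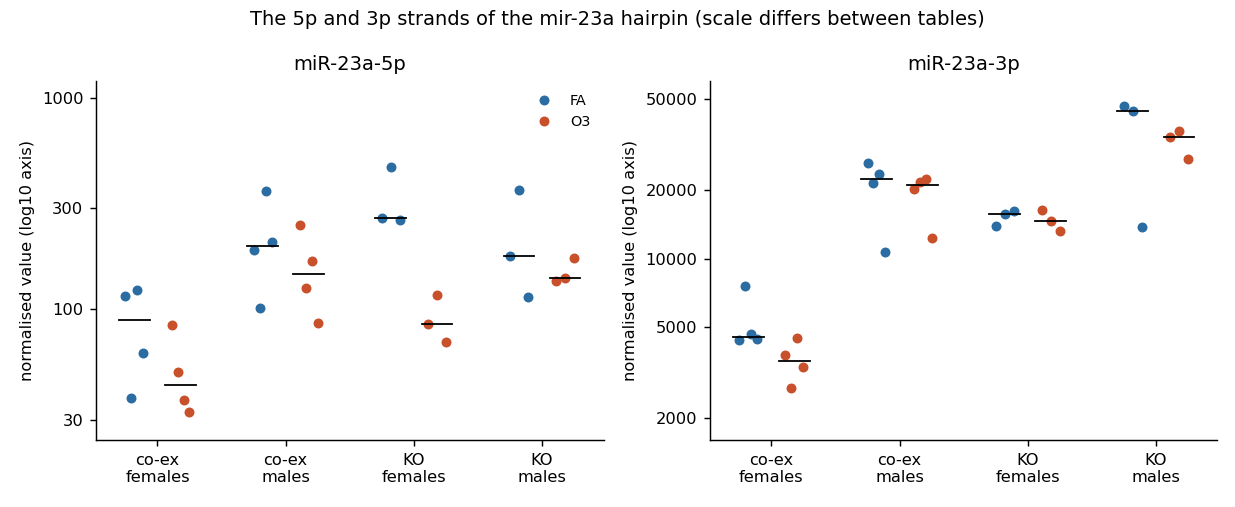
Normalised values of the 5p strand (left) and the 3p strand (right) of the mir-23a hairpin in every library (points; FA blue, O3 orange; log10 axes), with group medians (bars). In KO females the 5p strand fell from 265 to 470 units after FA to 70.3 to 116 after O3, while the 3p strand overlapped between the groups.

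miR-24-2-5p, the more abundant 5p strand, had log2 fold changes from -0.50 (SE 0.37) in KO females to 0.13 (SE 0.52) in KO males, with overlap in every table. Both miR-27 5p strands were near the floor of 3 reads in many co-ex libraries. In KO males miR-24-1-5p was higher after O3 without overlap, at a mean of 48.2 units against 28.2 (log2 fold change 0.82, SE 0.58, limma adjusted p = 0.918), beside 12.7% of miRNAs without overlap in that table. Without FA replicate 3 it was at 0.94 (limma adjusted p = 0.350). miR-27a-5p depended on that library more. It measured 268, 245 and 131 units after FA in KO males and 133, 117 and 93.0 after O3, with a log2 fold change of -0.85 (SE 0.49, limma adjusted p = 0.770). Without FA replicate 3, the FA library at 131, the groups did not overlap and the value was -1.17 (SE 0.36), which passed the threshold at a limma adjusted p of 0.0433. In that table without FA replicate 3, 20% of miRNAs passed and 43.4% had groups without overlap. The epithelial and myeloid shares given above moved with the same groups, and their part was not tested.

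The members were also compared with each other over the exposures. The log2 ratio of miR-27a-3p to miR-23a-3p was higher after O3 by 0.56 in co-ex females, 0.59 in co-ex males and 0.45 in KO females, and differed by -0.04 in KO males (0.13 without FA replicate 3). The ratio of miR-27b-3p to miR-23b-3p was higher by 0.58, 0.67 and 0.46 in the same 3 tables and differed by -0.01 in KO males (0.014 without FA replicate 3). None passed an exact two-sided permutation test, with adjusted p of 0.622 or more over 28 ratios, and the exposures overlapped in each table. In the KO tables no ratio could pass, because the smallest p of this test is 0.1 with 3 libraries against 3. With 4 against 4 it is 0.0286 before adjustment. The tests therefore decide nothing in the KO tables and could detect little in the co-ex tables.

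Members were correlated across the 28 libraries after the mean of each table was subtracted from log2(normalised value + 1), without a test. Each miR-23 and miR-27 member correlated more with its sequence pair than with the miR-27 or miR-23 member of its own cluster. The Pearson correlation was 0.65 between miR-23a-3p and miR-23b-3p and 0.67 between miR-27a-3p and miR-27b-3p, both of which pair different chromosomes. Within the a cluster, miR-23a-3p and miR-27a-3p had 0.48, and 0.27 without KO male FA replicate 3. Within the b cluster, miR-23b-3p and miR-27b-3p had 0.05. miR-24-3p, whose reads could not be assigned to a cluster, had 0.48 with miR-23a-3p and 0.44 with miR-23b-3p. It had 0.17 with miR-27a-3p and 0.05 with miR-27b-3p. These correlations describe libraries that share depth and normalisation, and reads assigned to either member of a near-identical pair would add to the correlation within a family.

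**Figure D5:**
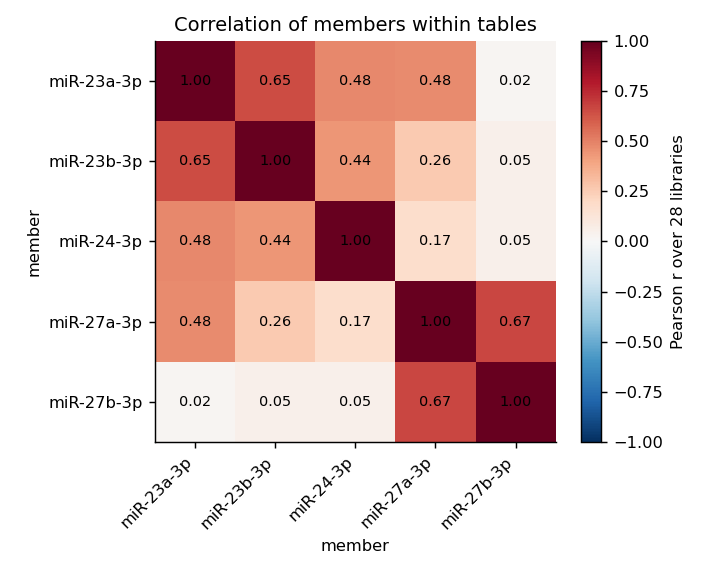
Pearson correlation between members over 28 libraries, on log2(normalised value + 1) less the table mean (both axes list the 5 members). The highest values off the diagonal are 0.67 for the miR-27 pair and 0.65 for the miR-23 pair, against 0.48 for miR-23a-3p with miR-27a-3p and 0.05 for miR-23b-3p with miR-27b-3p.

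Among 123 other miRNAs that reached a value of 5 or more in every library, the 3 most like the mean of the members were miR-146b-5p (r = 0.75), miR-223-3p (r = 0.71) and miR-29a-3p (r = 0.66). The first and second of these are on the myeloid list. miR-23a-3p was closest to miR-146b-5p (0.86, or 0.79 without KO male FA replicate 3), miR-23b-3p to miR-223-3p (0.77), miR-24-3p to miR-191-5p (0.67) and miR-27b-3p to miR-30e-3p (0.48). miR-27a-3p was closest to miR-146b-5p at 0.48, which dropped to 0.19 without KO male FA replicate 3, so that likeness rested on 1 library.

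Beyond the family itself, few listed miRNAs carried these seeds. Sequences were found for 517 of the 607 miRNAs listed in at least 1 table. None but the members had the seed of miR-23a-3p or of the miR-27 pair, and mmu-mir-6369 shared that of miR-24-3p. miR-128-3p carries the miR-27 seed shifted by 1 base. It did not pass in any table, and in KO males it had log2 fold change -0.99 (SE 0.72, limma adjusted p = 0.924), with 5886 units in FA replicate 3 against 945 and 1033 in the other FA libraries. Without that library it was -0.13 (limma adjusted p = 0.810).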

How the data were processed

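Small RNA of AM was sequenced in 28 libraries (NEXTflex kit, Illumina). According to the study's methods, the authors trimmed reads with the FASTX-Toolkit and adapters were removed, Chimira aligned and counted miRNAs, and differential expression was called with edgeR and TCC. The genome build and miRNA annotation they used are not given in the sources used here. The deposited library columns hold a signal, the read count of each miRNA divided by a size factor of its library, with each of the 4 tables normalized on its own. Steps of one read were found for 100% of values (tolerance 0.01), so reads were recovered. The deposited tables also hold a mean over libraries and the authors' own log2 fold change, p-values and a score that ranks miRNAs, none of which was used.

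Exposures were compared table by table with limma 3.58.1 (R 4.3.3, trended prior) on log2(value + 1). A miRNA entered when the number of libraries at 5 or above equalled at least the size of the smaller group, and p-values were adjusted by Benjamini-Hochberg, with 0.1 as the threshold. Fold changes on this scale understate those of low miRNAs. Ratios were tested by exact permutation or sign-flip tests (scipy 1.17.1). edgeR 4.0.16 and DESeq2 1.42.0 on recovered reads were alternatives, beside those named in the closing section; those for miR-23a-5p and for ratios against 0, and the tests of all miRNAs without KO male FA replicate 3, were chosen after seeing the data. The fit was tested on simulated data. The labels state 4 animals a group. The study's methods give a total of mice for the miRNA work and mention correlation between mice. Neither matches a library to its animal or animals, so p-values measure the spread between libraries. Marker lists named miR-142 without the letter the tables use, and its strands are not in the myeloid sums. Named miRNAs were the 5 members, the other strands of their hairpins, miRNAs with a member's seed, miR-128-3p and the miRNAs most like the members. Members, lists and tests were chosen with earlier results of these data known.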

Additional observations from a re-analysis of the deposited data

Results flagged for a closer look

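Among 28 tests for a library far from the rest of its group of 4, of which chance flags about 1 in 20, 2 stood out. miR-23a-3p in co-ex female FA replicate 2 measured 7588 normalised units, against 4414 to 4683 in the other 3 libraries. The ratio of miR-27a-3p to miR-27b-3p in co-ex female FA replicate 3 was 0.370, against 0.638 to 0.682. No other value of the members was flagged, and groups of 3 were not tested.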

How the results depend on the processing

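The count of members called between O3 and FA was 0 under all 56 alternatives (scaling to library totals, no filter, a pseudocount of 0.1, a threshold of 0.05, edgeR, DESeq2, the replicate block, each library left out), and 0 under all 64 for the differences of response. Replicate numbers shared by FA and O3 did not pair the libraries, whose deviations correlated between -0.28 and 0.23. With that number as a block the count stayed 0 in each table, and miR-23a-5p in KO females had an adjusted p of 0.093 by limma. Both ratios against 0 stayed under the threshold in every library left out (adjusted p 0.0313 or 0.0625). Signs of small changes were less firm. Scaling to library totals gave 0.14 for miR-23a-3p and 0.021 for miR-23b-3p in KO females, and 0.016, 0.11 and 0.0075 for miR-23b-3p, miR-24-3p and miR-27b-3p in KO males. In KO males, miR-23a-3p and miR-27a-3p were at -0.065 and -0.026 by edgeR and at -0.095 and -0.055 by DESeq2. With each library left out, the log2 fold change ranged from -0.35 to 0.045 for miR-24-3p, -0.15 to 0.19 for miR-27a-3p and -0.0094 to 0.16 for miR-27b-3p in co-ex females. It ranged from -0.34 to 0.14 for miR-23a-3p and -0.29 to 0.091 for miR-24-3p in co-ex males, and from -0.13 to 0.027 for miR-23a-3p in KO females. In KO males it ranged from -0.49 to 0.39 for miR-23a-3p, -0.40 to 0.015 for miR-24-3p and -0.37 to 0.35 for miR-27a-3p. The change in the log2 ratio of miR-23a-3p to miR-23b-3p ranged from -0.42 to 0.19 in co-ex females and -0.12 to 0.57 in KO males. For miR-27a-3p to miR-27b-3p it ranged from -0.27 to 0.029 in co-ex females, -0.069 to 0.23 in co-ex males and -0.00075 to 0.45 in KO males. The causes were not tested.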
